A study of Mus musculus with 8 samples.

Results

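The genes described here make up the DNA synthesis machinery of S phase, from origin licensing to chromatin assembly behind the fork. They are 46 genes listed by name, with the MCM helicase genes left out, and were further selected on their mean over the 8 libraries, which had to be at least 3 on the authors' normalized log2 scale. All 46 were found among the 24918 rows of the deposited table and all 46 passed that minimum, the lowest being Dscc1 with a mean of 4.46, so no member lay near it. The minimum used the mean of both groups together and not their difference, but the list was put together with earlier results of the same comparison known.

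The dexamethasone corneas came from male C57BL/6J mice, wild-type in genotype, given eye drops with dexamethasone, a synthetic glucocorticoid, for 6 h. The vehicle corneas came from mice of the same sex, strain and genotype given vehicle eye drops for 6 h. All mice of both groups had been adrenalectomized at 8 weeks of age, about 4 weeks before the drops, so neither group had adrenal glucocorticoids of its own. Each group had 4 libraries of total RNA from whole cornea, each a pool of 4 to 6 corneas, and the labels do not say how many mice a pool came from. The contrast shows the response of the cornea to a topical glucocorticoid where the adrenal supply is absent.

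A cell copies its DNA once per cycle. In G1 the origin recognition complex, Cdc6 and Cdt1 load the MCM helicase onto origins, and in S phase the kinase Cdc7 with Dbf4, then Cdc45 and the GINS complex, turn it into an active helicase. DNA polymerase alpha with primase lays down primers, the clamp loader places the PCNA ring, polymerases delta and epsilon extend the strands, and flap processing and ligation join the lagging strand. Many of these genes are transcribed under E2F factors as cells enter S phase. In the cornea, dividing cells lie mainly in the basal layer of the epithelium and at the limbus, and topical glucocorticoids can delay the healing of that epithelium.

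After dexamethasone, 36 of the 46 genes were lower, 1 was higher and 9 did not pass the test. Of all 14715 tested rows 15.1% passed, 6.03% as lower and 9.04% as higher. The test was limma over all these rows, with an adjusted p under 0.05 as the threshold. The median log2 fold change of the 46 genes was -0.21, and that of all tested rows was -0.0029. It was negative in 45 of the 46 genes and in 51.5% of all tested rows. In 38 of the 46 genes each dexamethasone library lay below each vehicle library, which held for 9.11% of all tested rows. The falls were moderate. They ran from a log2 fold change of -0.15 to -0.44 among the 36 called genes, with a median of -0.23. Rows of low level hardly vary in the deposited table, as shrunken log2 values would. The transformation is not named and shrinkage at the levels of these 46 genes was not measured, so the sizes of the falls may be understated. In bulk RNA, fewer cells in S phase and less of these transcripts per cell cannot be told apart.

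**Figure D1:**
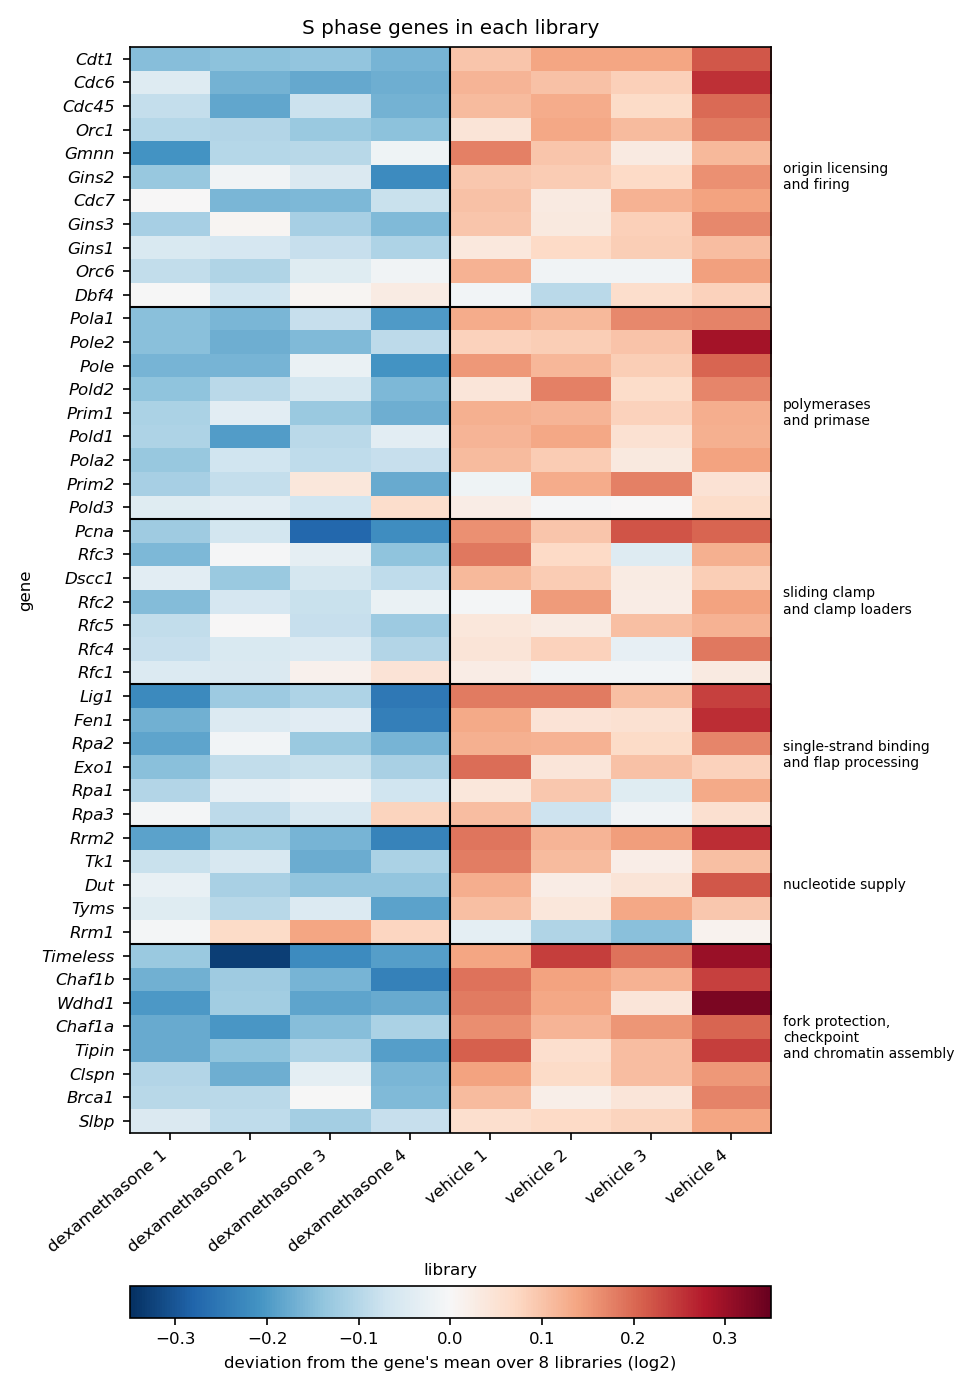
Deviation of each of the 46 genes from its own mean over the 8 libraries (log2, colour), with genes in rows by role and the 4 dexamethasone libraries left of the 4 vehicle libraries. Of the 46 genes, 38 are lower in each dexamethasone library than in each vehicle library, and Rrm1 has the opposite sign.

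The known glucocorticoid target genes Fkbp5, Zbtb16, Tsc22d3 and Per1 had log2 fold changes of 0.88, 0.80, 0.59 and 0.42, with no overlap of the groups. On the second principal component of all tested rows, which held 23.3% of the variance, dexamethasone replicate 1 and vehicle replicate 3 scored 7.58 and 8.72, against -4.71 to -0.08 for the other libraries. Without these libraries 37 of the 46 genes were called lower and 1 higher. The corneal epithelial markers, a list with the keratin gene Krt12 and Pax6, had 1 of 8 genes lower, and its summed linear level was 1850439 to 2047223 with dexamethasone and 1997223 to 2057712 with vehicle. That gene was Krt5, a keratin gene of basal epithelial cells, at 18.57 ± 0.08 with dexamethasone and 18.80 ± 0.02 with vehicle (SD, n = 4 each), with an adjusted p of 0.0113. Other genes of basal or limbal cells in that list did not pass the test and differed in sign, with log2 fold changes of -0.29 for Krt14, 0.04 for Krt15 and 0.10 for Trp63. Each dexamethasone library of Trp63 lay above each vehicle library (adjusted p = 0.0853). Krt12 averaged 19.73 ± 0.06 with dexamethasone and 19.75 ± 0.02 with vehicle (SD, n = 4 each). Stromal markers had 2 of 7 genes lower (Kera and Lum) and 1 higher (Cd34), with sums of 308153 to 326705 with dexamethasone and 303746 to 321454 with vehicle. Corneal endothelium markers had 1 of 6 lower (Slc4a11) and 2 higher, with sums of 60964 to 63404 with dexamethasone and 55417 to 58144 with vehicle. Of 12 immune cell markers found, 7 were tested and none was called, with sums of 8811 to 9251 with dexamethasone and 8952 to 9247 with vehicle. Of 7 vessel markers 6 were tested and 2 were higher (Tie1 and Lyve1), with sums of 1887 to 2037 with dexamethasone and 1727 to 1838 with vehicle. For comparison, 6.03% of all tested rows were called lower and 9.04% higher. The part of these lists in the falls was not tested. None of 4 tested markers of conjunctiva and goblet cells and none of 8 tested lens and iris markers was called. The conjunctiva and goblet cell list had sums of 43676 to 52702 with dexamethasone and 41169 to 46268 with vehicle. The goblet cell genes Muc5ac and Tff1 had means below 0 on the log2 scale, and Hba-a1, Hba-a2, Hbb-b1 and Hbb-b2 were listed at 0 in all 8 libraries. In the blood cell list 1 gene was tested, with a mean of 6.75, and was not called. The low or 0 values of single genes therefore do not show that blood or goblet cells were absent.

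Promoter sequence was examined because these genes moved together and many are known E2F targets. In the RefSeq table for GRCm38.p6, 37 of the 46 genes had a window of 250 bases before to 50 bases after a transcription start, and 4 of them had more than 1 window. The E2F forms searched on both strands were TTTCGCGC, TTTGGCGC, TTTCCCGC and TTTGCCGC, and matches of one form may overlap those of another. A match was found in 11 of the 37 genes (29.7%), in 2.61% of all 27025 genes in the table and in 4.45% of the 11524 genes that were also tested. The windows of the members had a median GC content of 63.2%, against 60.3% for the tested genes. Matches were in 9 of 28 genes called lower and in 2 of 9 other members. Since the list was made of S phase genes, a higher share of matches than in other genes was likely whatever dexamethasone did. A link between the matches and the falls was not tested. Whether each window lies at the main start of its gene was not checked, so a gene without a match may have one elsewhere. The 11 genes with a match are given as stretches of 30 bases on the strand of the gene, 5′ to 3′, with the matched letters in capitals. Where the capitals begin with GCG, the form lies on the other strand.
Cdc6 (chr11:98908002-98908031, plus strand): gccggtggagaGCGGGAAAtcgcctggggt
Cdt1 (chr8:122568035-122568064, plus strand): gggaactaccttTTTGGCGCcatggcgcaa
Clspn (chr4:126556990-126557019, plus strand): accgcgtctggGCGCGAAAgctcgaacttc
Gins3 (chr8:95633507-95633536, plus strand): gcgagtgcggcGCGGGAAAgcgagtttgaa
Lig1 (chr7:13278841-13278870, plus strand): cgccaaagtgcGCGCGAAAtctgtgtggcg
Orc1 (chr4:108579416-108579445, plus strand): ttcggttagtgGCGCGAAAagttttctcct
Pola1 (chrX:93632275-93632304, minus strand): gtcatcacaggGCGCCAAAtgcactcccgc
Pold1 (chr7:44548766-44548795, minus strand): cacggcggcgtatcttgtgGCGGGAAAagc
Pole2 (chr12:69228162-69228191, minus strand): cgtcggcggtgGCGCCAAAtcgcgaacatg
Pold3 (chr7:100121467-100121496, minus strand): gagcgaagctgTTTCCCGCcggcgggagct
Rfc3 (chr5:151651195-151651224, minus strand): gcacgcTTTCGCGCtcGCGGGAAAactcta
The first 9 stretches belong to genes called lower, and Pold3 and Rfc3 were not called. The matches began at positions from -138 (Cdc6 and Pola1) to 39 (Pold1), counted with the first transcribed base as 0. Rfc3 carried 2 matches, at -10 and 0. A letter match is a description of the window and does not show a bound site. The CCAAT box was in 19 of the 37 genes and in 42.3% of the tested genes, and the letters TTTGAA of the cell cycle homology region in 6 of the 37 genes and in 14.4% of the tested genes. The glucocorticoid response element, searched as AGAACA and TGTTCT with 3 bases between them, was in none of the 37 genes and in 1 of the 11524 tested genes. This exact form was so rare that finding none in 37 genes cannot show that such elements are absent.

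Origin licensing and firing genes fell in 9 of 11 cases, and all 11 had a negative log2 fold change, with a median of -0.21. The licensing factors Cdt1 and Cdc6 had the largest falls of this group. Orc6 and Dbf4 did not pass the test.

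Cdt1 (Entrez 67177; mm9 chromosome 8, 125091915 to 125097028), which brings the MCM helicase to origins, had log2 values of 7.84, 7.85, 7.85 and 7.83 with dexamethasone, against 8.09, 8.13, 8.13 and 8.21 with vehicle. The highest dexamethasone library lay below the lowest vehicle library, and the log2 fold change was -0.30 (SE 0.03, adjusted p = 0.000201, limma); it fell by 18.5%. Cdc6, the ATPase that loads the helicase together with Cdt1, stood at 6.08, 5.96, 5.95 and 5.96 with dexamethasone, against 6.24, 6.23, 6.21 and 6.38 with vehicle. Its dexamethasone replicate 1 was the highest of its group and still below all vehicle libraries (log2 fold change -0.28, SE 0.05, adjusted p = 0.00187). Orc1, the large ATPase subunit of the origin recognition complex, was at 4.94, 4.94, 4.91 and 4.89 with dexamethasone, against 5.08, 5.17, 5.15 and 5.22 with vehicle. The groups of Orc1 did not overlap either (log2 fold change -0.24, SE 0.03, adjusted p = 0.000451). Orc6, the smallest subunit of that complex, averaged 8.23 ± 0.04 with dexamethasone and 8.35 ± 0.08 with vehicle (SD, n = 4 each). Its groups also stayed apart, though dexamethasone replicate 4 and vehicle replicates 2 and 3 were all 8.28 when rounded, and it missed the threshold (adjusted p = 0.0911). Gmnn encodes geminin, an inhibitor of Cdt1 that keeps origins from being licensed again in the same cycle. Its log2 values were 6.85, 6.96, 6.97 and 7.05 with dexamethasone, against 7.24, 7.16, 7.09 and 7.18 with vehicle. The inhibitor was lower in all dexamethasone libraries, as was the factor it binds (log2 fold change -0.21, SE 0.05, adjusted p = 0.0114).

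Most firing factors were lower as well. Cdc45, a partner of the MCM ring in the active helicase, had log2 values of 6.41, 6.31, 6.42 and 6.33 with dexamethasone, against 6.60, 6.63, 6.56 and 6.69 with vehicle. Its log2 fold change was -0.25 (SE 0.04, adjusted p = 0.00147). The GINS genes encode the other partner. Gins1 was at 5.21, 5.20, 5.18 and 5.15 with dexamethasone, against 5.30, 5.33, 5.35 and 5.37 with vehicle. Gins2 was at 6.83, 6.95, 6.91 and 6.74 with dexamethasone, against 7.06, 7.05, 7.03 and 7.12 with vehicle. Gins3 was at 6.29, 6.41, 6.29 and 6.25 with dexamethasone, against 6.50, 6.44, 6.49 and 6.57 with vehicle. All 3 showed no overlap between groups, with log2 fold changes of -0.15 (adjusted p = 0.00334), -0.21 (adjusted p = 0.0119) and -0.19 (adjusted p = 0.0117). Cdc7, the kinase that triggers origins, was at 7.07, 6.91, 6.91 and 6.99 with dexamethasone, against 7.17, 7.10, 7.19 and 7.21 with vehicle. It fell by 0.20 on the log2 scale (SE 0.04, adjusted p = 0.0116), a call lost when the level of each library in rows taken to have no read there (its zero-read level) was added as a covariate (adjusted p = 0.0826). Dbf4, the subunit that activates Cdc7, had log2 values of 8.02, 7.95, 8.03 and 8.05 with dexamethasone, against 8.01, 7.93, 8.08 and 8.10 with vehicle. These values overlapped across groups, and the log2 fold change was -0.02 (95% interval -0.11 to 0.08, adjusted p = 0.826). Whether the changes of Cdc7 and Dbf4 differ was not tested.

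Polymerase and primase genes fell in 7 of 9 cases, and all 9 had a negative log2 fold change, with a median of -0.23. The catalytic subunits of polymerases alpha, delta and epsilon were each called lower.

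Pola1 (Entrez 18968; mm9 chromosome X, 90550106 to 90877494), the catalytic subunit of polymerase alpha, had log2 values of 8.33, 8.31, 8.39 and 8.28 with dexamethasone, against 8.60, 8.59, 8.64 and 8.65 with vehicle. The gap between the groups was wider than the range within either one (log2 fold change -0.29, SE 0.04, adjusted p = 0.000243). Its accessory subunit gene Pola2 stood at 7.44, 7.50, 7.48 and 7.49 with dexamethasone, against 7.68, 7.66, 7.61 and 7.71 with vehicle. Prim1, the catalytic subunit of primase, was at 8.73, 8.80, 8.71 and 8.67 with dexamethasone, against 8.96, 8.96, 8.92 and 8.96 with vehicle. Neither gene showed overlap between groups (Pola2 log2 fold change -0.19, adjusted p = 0.00446, and Prim1 -0.23, adjusted p = 0.00141). Prim2, the regulatory primase subunit, averaged 6.93 ± 0.09 with dexamethasone and 7.10 ± 0.09 with vehicle (SD, n = 4 each) and was not called (adjusted p = 0.0557). Dexamethasone replicate 3 of Prim2, at 7.06, lay above vehicle replicate 1, at 7.001, and the gene was called without either of them (adjusted p = 0.0209 and 0.0366) and with a replicate block (adjusted p = 0.0269).

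Pole, the catalytic subunit of the leading-strand polymerase epsilon, was at 7.61, 7.61, 7.74 and 7.56 with dexamethasone, against 7.92, 7.88, 7.85 and 7.97 with vehicle. Pole2, its accessory subunit, was at 5.37, 5.34, 5.36 and 5.42 with dexamethasone, against 5.59, 5.60, 5.61 and 5.80 with vehicle. Both fell by the same rounded size, with log2 fold changes of -0.28 (adjusted p = 0.00192) and -0.28 (adjusted p = 0.00190). Pold1, the catalytic subunit of the lagging-strand polymerase delta, was at 8.76, 8.67, 8.78 and 8.83 with dexamethasone, against 8.99, 9.004, 8.92 and 8.99 with vehicle. Pold2, an accessory subunit of polymerase delta, was at 8.54, 8.59, 8.62 and 8.53 with dexamethasone, against 8.72, 8.86, 8.75 and 8.85 with vehicle. Each fell without overlap of the groups, with log2 fold changes of -0.22 (adjusted p = 0.00329) and -0.23 (adjusted p = 0.00354). Pold3, another accessory subunit, averaged 9.94 ± 0.06 with dexamethasone and 9.98 ± 0.03 with vehicle (SD, n = 4 each). The groups of Pold3 overlapped, and its log2 fold change was -0.04 (95% interval -0.12 to 0.03, adjusted p = 0.421). Pold4, the smallest subunit of polymerase delta and not one of the 46 genes, rose by 0.15 on the log2 scale (SE 0.04, adjusted p = 0.0245). That call was lost on leaving out any one of dexamethasone replicates 2 and 3 and vehicle replicates 1, 2 and 4, and with the zero-read covariate.

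In the clamp and clamp loader group 4 of 7 genes fell and 3 were not called, with a median log2 fold change of -0.16. The number that fell was 2 without dexamethasone replicate 1 or 3 or vehicle replicate 4. Pcna fell most. The subunits of the loader RFC had log2 fold changes between -0.17 and -0.02.

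Pcna (Entrez 18538; mm9 chromosome 2, 132074898 to 132079050) encodes the ring that tethers polymerases to DNA. Its log2 values were 8.54, 8.60, 8.39 and 8.45 with dexamethasone, against 8.83, 8.77, 8.89 and 8.87 with vehicle. All 4 dexamethasone libraries were below all vehicle libraries, and the log2 fold change was -0.34 (SE 0.05, adjusted p = 0.000803); it fell by 21.0%. Dscc1, a subunit of the alternative loader built around Ctf18, was at 4.42, 4.32, 4.40 and 4.37 with dexamethasone, against 4.57, 4.55, 4.48 and 4.54 with vehicle. It fell by 0.16 on the log2 scale (SE 0.03, adjusted p = 0.00281).

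The loader RFC has a large subunit, Rfc1, and small subunits encoded by Rfc2 to Rfc5. Rfc2 was at 8.98, 9.07, 9.05 and 9.11 with dexamethasone, against 9.13, 9.28, 9.16 and 9.27 with vehicle. Rfc5 was at 8.20, 8.29, 8.21 and 8.16 with dexamethasone, against 8.33, 8.32, 8.39 and 8.41 with vehicle. Both were called lower, with log2 fold changes of -0.16 (adjusted p = 0.0359) and -0.15 (adjusted p = 0.0259), and neither call was stable. Rfc2 was lost on leaving out any one of dexamethasone replicates 1, 2 and 3 and vehicle replicates 2 and 4, at adjusted p of 0.0621 to 0.110. It was also lost with no filter (adjusted p = 0.0633) and with the zero-read covariate (adjusted p = 0.0728). Rfc5 was lost on leaving out any one of dexamethasone replicates 1, 3 and 4 and vehicle replicates 3 and 4, at adjusted p of 0.0547 to 0.0849. A replicate block also ended it (adjusted p = 0.0704). Without dexamethasone replicate 1 and vehicle replicate 3 together, Rfc2 and Rfc5 had adjusted p of 0.0545 and 0.0846. Rfc3 averaged 7.49 ± 0.08 with dexamethasone and 7.66 ± 0.10 with vehicle (SD, n = 4 each) and Rfc4 6.87 ± 0.03 with dexamethasone and 7.01 ± 0.09 with vehicle (SD, n = 4 each). Neither passed the threshold (adjusted p = 0.0604 for Rfc3 and 0.0536 for Rfc4). Both were called without vehicle replicate 3 (adjusted p of 0.0155 and 0.0175), and Rfc4 also with a minimum mean of 5, median centring or limma without trend (adjusted p of 0.0462 to 0.0495). Rfc1 had log2 values of 11.00, 11.00, 11.07 and 11.10 with dexamethasone, against 11.08, 11.04, 11.04 and 11.08 with vehicle. The groups of Rfc1 overlapped, and the interval of its log2 fold change of -0.02 was narrow (95% interval -0.08 to 0.05, adjusted p = 0.738). Per kilobase of annotated exon, the vehicle levels of the loader genes on the log2 scale were 8.61 for Rfc2, 8.48 for Rfc1, 6.39 for Rfc4, 6.14 for Rfc5 and 5.81 for Rfc3.

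Among the genes for single-strand binding, flap processing and ligation, 4 of 6 fell and 2 were not called, with a median log2 fold change of -0.23. Lig1 had the largest fall of this group, and the single-strand binding genes were split.

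Lig1 (Entrez 16881; mm9 chromosome 7, 13862632 to 13896782) encodes the ligase that seals Okazaki fragments. Its log2 values were 9.08, 9.17, 9.19 and 9.05 with dexamethasone, against 9.48, 9.48, 9.41 and 9.54 with vehicle. The log2 fold change was -0.35 (SE 0.04, adjusted p = 0.000203); it fell by 21.8%, and the groups did not overlap. Fen1, the flap endonuclease that trims those fragments, was at 8.44, 8.56, 8.57 and 8.37 with dexamethasone, against 8.74, 8.66, 8.66 and 8.87 with vehicle. Exo1, an exonuclease of replication and mismatch repair, was at 6.13, 6.19, 6.20 and 6.17 with dexamethasone, against 6.47, 6.32, 6.38 and 6.36 with vehicle. Both were lower with no overlap of the groups, with log2 fold changes of -0.25 (adjusted p = 0.0148) and -0.21 (adjusted p = 0.00315). The call for Fen1 was lost with a replicate block (adjusted p = 0.0517). Rpa2, the middle subunit of the single-strand binding protein RPA, was at 7.67, 7.85, 7.73 and 7.70 with dexamethasone, against 7.98, 7.98, 7.93 and 8.03 with vehicle. It was the one RPA gene called lower (log2 fold change -0.24, SE 0.04, adjusted p = 0.00343). Rpa1, the large subunit, averaged 10.80 ± 0.04 with dexamethasone and 10.91 ± 0.08 with vehicle (SD, n = 4 each) and Rpa3, the small subunit, 6.73 ± 0.07 with dexamethasone and 6.77 ± 0.08 with vehicle (SD, n = 4 each). Both overlapped between groups, with log2 fold changes of -0.11 (95% interval -0.20 to -0.03, adjusted p = 0.0769) and -0.04 (95% interval -0.14 to 0.07, adjusted p = 0.648). Rpa1 was called without vehicle replicate 3 (adjusted p = 0.0149) and with quantile normalization (adjusted p = 0.0425). Differences between the subunits were not tested.

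Of the 5 genes of nucleotide supply 4 fell and Rrm1 rose. The pair Rrm1 and Rrm2 encodes the large and the small subunit of ribonucleotide reductase, which makes deoxyribonucleotides. As protein, the small subunit is the one whose amount rises in S phase, but only RNA was measured here.

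Rrm2 (Entrez 20135; mm9 chromosome 12, 25393106 to 25399011) had log2 values of 9.19, 9.25, 9.21 and 9.14 with dexamethasone, against 9.56, 9.49, 9.52 and 9.64 with vehicle. All dexamethasone libraries were lower than all vehicle libraries, and the log2 fold change was -0.36 (SE 0.04, adjusted p = 0.000107); it fell by 21.9%. Rrm1 (Entrez 20133; mm9 chromosome 7, 109590209 to 109618285) had log2 values of 11.32, 11.39, 11.46 and 11.40 with dexamethasone, against 11.29, 11.22, 11.18 and 11.34 with vehicle. Its groups overlapped, since vehicle replicate 4 at 11.34 lay above dexamethasone replicate 1 at 11.32. The log2 fold change was 0.14 (SE 0.04, adjusted p = 0.0449). That call was lost in 11 of 17 alternatives, with adjusted p over all 17 of 0.0264 to 0.244. Leaving out any one of dexamethasone replicates 2, 3 and 4 and vehicle replicates 1, 2 and 3 ended it, at adjusted p of 0.0625 to 0.113. Its log2 fold change stayed positive in all 17, from 0.10 to 0.16. Within each library the log2 value of Rrm1 exceeded that of Rrm2 by 2.13, 2.14, 2.25 and 2.25 with dexamethasone, against 1.73, 1.72, 1.66 and 1.70 with vehicle. This pair was picked after its values were seen, and the difference is given without a test. Per kilobase of exon the log2 levels of Rrm1 were 9.39 with dexamethasone and 9.26 with vehicle, and those of Rrm2 were 7.73 with dexamethasone and 8.08 with vehicle.

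The windows before the starts of this pair are shown because the genes moved in opposite directions. The stretches are the 250 bases before the start in RefSeq on GRCm38.p6, 5′ to 3′ on the plus strand, with CCAAT in capitals.
Rrm2 (chr12:24708004-24708253): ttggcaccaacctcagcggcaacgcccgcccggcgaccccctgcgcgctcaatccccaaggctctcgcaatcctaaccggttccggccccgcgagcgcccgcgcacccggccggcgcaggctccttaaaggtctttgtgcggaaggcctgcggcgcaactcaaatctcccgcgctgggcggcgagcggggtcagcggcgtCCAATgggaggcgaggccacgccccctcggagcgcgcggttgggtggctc
Rrm1 (chr7:102441445-102441694): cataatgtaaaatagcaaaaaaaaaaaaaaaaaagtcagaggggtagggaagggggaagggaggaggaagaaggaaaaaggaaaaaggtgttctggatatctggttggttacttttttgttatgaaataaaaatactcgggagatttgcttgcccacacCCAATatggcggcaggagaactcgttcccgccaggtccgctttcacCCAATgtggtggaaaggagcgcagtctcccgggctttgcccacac
Rrm2 held 1 CCAAT box, at -50, and Rrm1 held 2, at -91 and -45. Neither window held any of the E2F forms searched, which says only that these letters were not there.

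Tyms, which makes thymidylate, had log2 values of 6.93, 6.88, 6.93 and 6.79 with dexamethasone, against 7.08, 7.01, 7.11 and 7.07 with vehicle. Tk1, the thymidine kinase of the salvage route, was at 7.50, 7.52, 7.41 and 7.47 with dexamethasone, against 7.76, 7.69, 7.60 and 7.68 with vehicle. Dut, the enzyme that removes dUTP, was at 7.87, 7.79, 7.76 and 7.76 with dexamethasone, against 8.03, 7.93, 7.94 and 8.12 with vehicle. None of these 3 genes overlapped between groups, and their log2 fold changes were -0.19 (adjusted p = 0.0100), -0.21 (adjusted p = 0.00641) and -0.21 (adjusted p = 0.0127). With the zero-read covariate the calls of Tk1 and Dut were lost (adjusted p of 0.0556 and 0.0711).

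**Figure D2:**
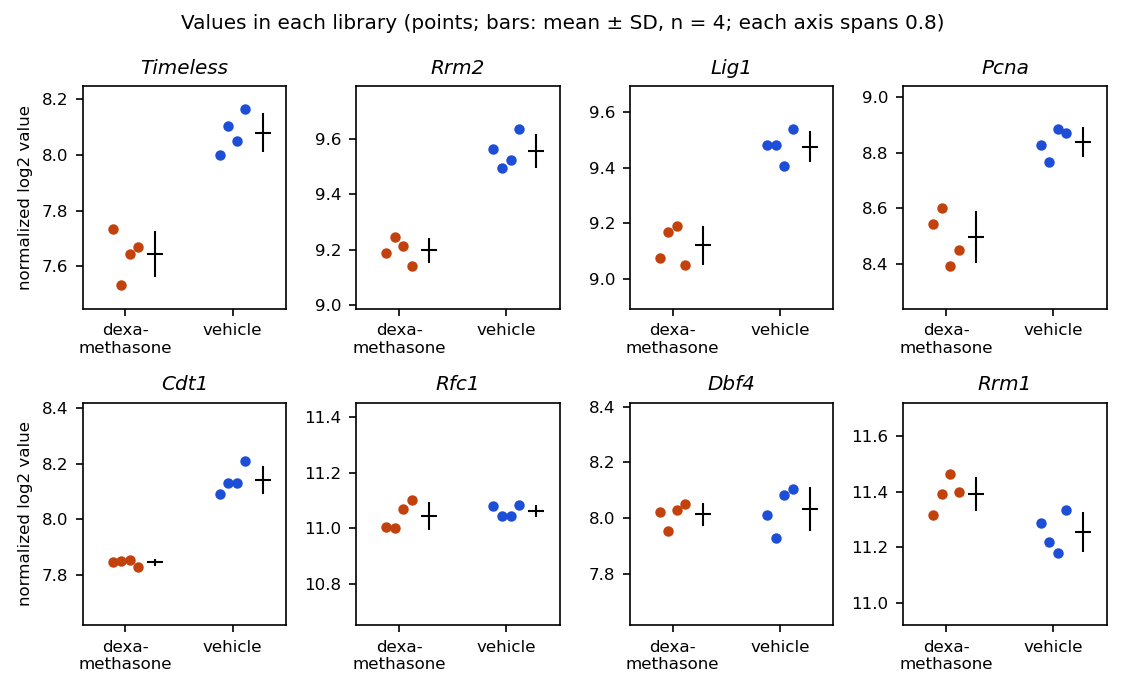
Normalized log2 values of 8 genes in each library (points), with the mean and SD of each group of 4 (black), dexamethasone left of vehicle and each vertical axis spanning 0.8. Timeless, Rrm2, Lig1, Pcna and Cdt1 show groups that do not overlap, Rfc1 and Dbf4 show groups that overlap, and Rrm1 is higher with dexamethasone with some overlap.

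Genes of fork protection, checkpoint signalling and chromatin assembly fell in 8 of 8 cases, with a median log2 fold change of -0.31. Timeless had the largest fall of all 46 genes, and only 28 of the 14715 tested rows had a lower log2 fold change.

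Timeless (Entrez 21853; mm9 chromosome 10, 127669119 to 127689997) encodes one subunit of the fork protection complex. Its log2 values were 7.73, 7.53, 7.64 and 7.67 with dexamethasone, against 8.00, 8.10, 8.05 and 8.16 with vehicle. The groups lay 0.27 apart at their nearest libraries, and the log2 fold change was -0.44 (SE 0.05, adjusted p = 0.000161); it fell by 26.1%. Tipin, the partner of Timeless in that complex, was at 7.84, 7.87, 7.90 and 7.82 with dexamethasone, against 8.22, 8.07, 8.12 and 8.25 with vehicle. It fell by 0.31 on the log2 scale (SE 0.05, adjusted p = 0.000950). Clspn encodes claspin, which joins this complex and relays stalled forks to the checkpoint kinase Chk1. Its log2 values were 6.98, 6.91, 7.05 and 6.92 with dexamethasone, against 7.22, 7.15, 7.19 and 7.23 with vehicle. Wdhd1, which links the helicase to polymerase alpha, was at 7.88, 7.96, 7.90 and 7.91 with dexamethasone, against 8.26, 8.22, 8.12 and 8.41 with vehicle. Their log2 fold changes were -0.23 (adjusted p = 0.00240) for Clspn and -0.34 (adjusted p = 0.00152) for Wdhd1, without overlap of the groups in either.

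Chaf1a and Chaf1b encode the large and the middle subunit of chromatin assembly factor 1, which puts histones on new DNA. Chaf1a was at 8.48, 8.45, 8.51 and 8.55 with dexamethasone, against 8.82, 8.78, 8.81 and 8.86 with vehicle. Chaf1b was at 6.36, 6.41, 6.37 and 6.30 with dexamethasone, against 6.73, 6.67, 6.66 and 6.77 with vehicle. These falls, with log2 fold changes of -0.32 (SE 0.03, adjusted p = 0.000103) and -0.35 (SE 0.04, adjusted p = 0.000124), were of like size. Chaf1a had the smallest adjusted p of the 46 genes. Slbp, which binds the stem-loop of histone mRNAs, was at 9.32, 9.28, 9.25 and 9.29 with dexamethasone, against 9.43, 9.44, 9.45 and 9.51 with vehicle. Its fall was small and its groups were tight (log2 fold change -0.17, SE 0.03, adjusted p = 0.00338). Brca1, a gene of repair and fork protection, was at 6.99, 6.99, 7.08 and 6.93 with dexamethasone, against 7.19, 7.11, 7.13 and 7.26 with vehicle. Its log2 fold change was -0.17 (SE 0.04, adjusted p = 0.0237). Leaving out any one of dexamethasone replicates 2 and 4 and vehicle replicates 1 and 4 ended the call, at adjusted p of 0.0551 to 0.0754. A replicate block ended it too (adjusted p = 0.0627).

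**Figure D3:**
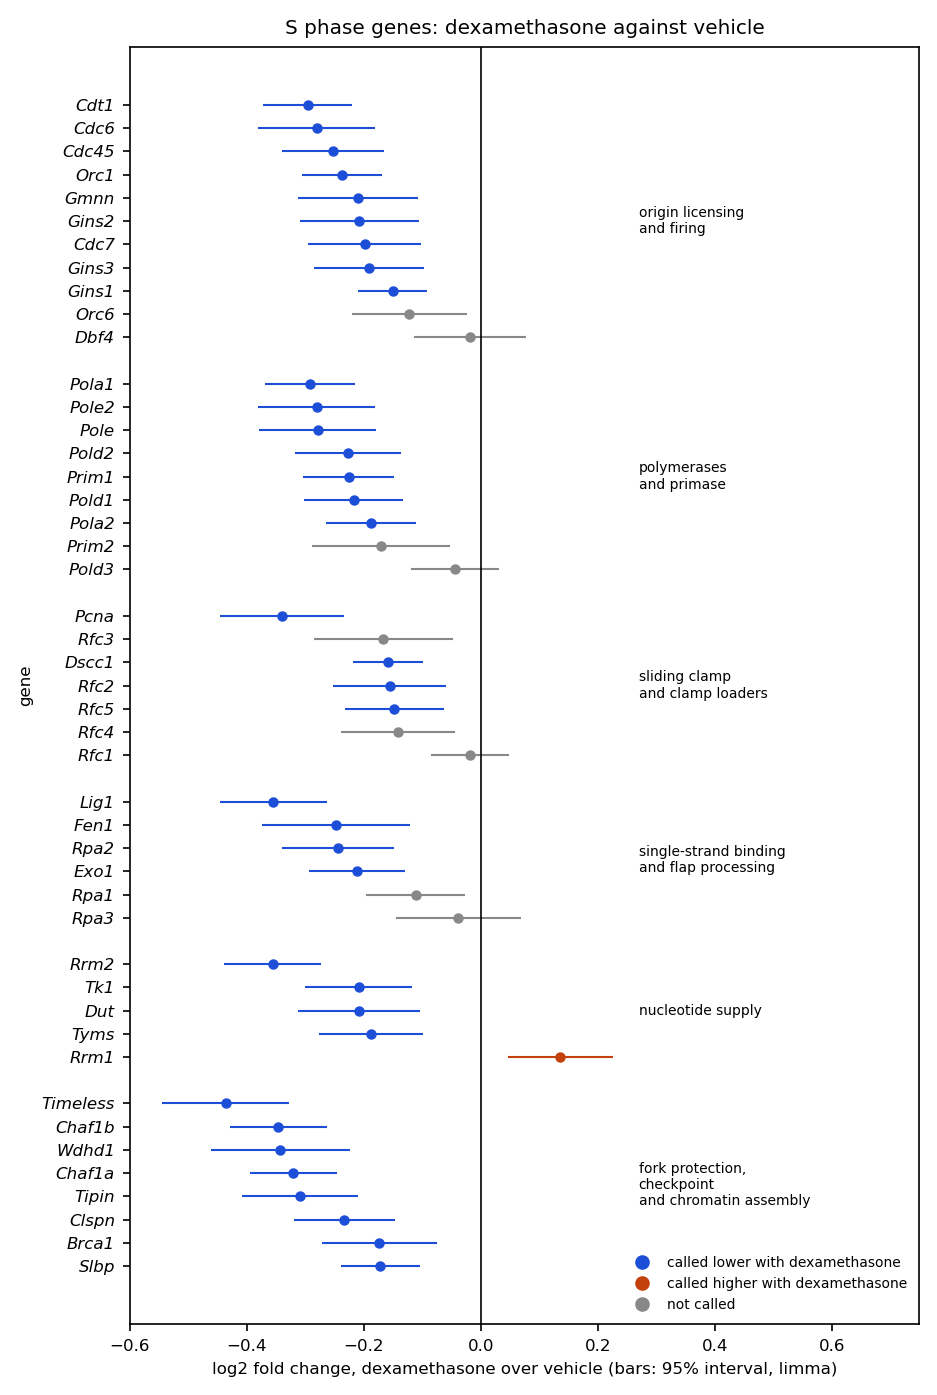
Log2 fold change of each of the 46 genes, dexamethasone over vehicle, with its 95% interval from limma, by role. Of the 46 genes 36 are called lower (blue), 1, Rrm1, is called higher (orange), and 9 are not called (grey).

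The median deviation of the 46 genes from their own means was -0.11, -0.09, -0.08 and -0.14 in dexamethasone replicates 1 to 4, against 0.11, 0.09, 0.07 and 0.16 in vehicle replicates 1 to 4. Vehicle replicate 4 was the highest vehicle library in 34 of the 46 genes and the lowest in 0. Vehicle replicates 2 and 3 were the lowest vehicle libraries in 19 and 18 genes. Dexamethasone replicate 4 was the lowest dexamethasone library in 20 genes and the highest in 10. Without vehicle replicate 4, 33 of the 46 genes and 493 of all tested rows were called lower. Without dexamethasone replicate 4 the counts were 34 and 547. Over all 8 choices of a library to leave out the number was 33 to 38. The libraries also differed in the zero-read level, taken over rows at or next to their own minimum. It lay 0.000205, 0, 1.17e-05 and 7.66e-05 above the row minimum on the log2 scale in dexamethasone replicates 1 to 4, against 0.000206, 0.000242, 0.000117 and 0.000106 in vehicle replicates 1 to 4. With this level as a covariate in the fit, 32 of the 46 genes were called lower, where 2.91% of all tested rows were. Dexamethasone replicates 2 to 4 lay below every vehicle library in this level, so the covariate is partly confounded with the treatment. For calls lost with it, the part of the level and that of the treatment cannot be told apart.

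Exon sequence on the other strand was annotated for 12 of the 46 genes in GENCODE vM1. They were Orc1, Cdc45, Gins2, Pole, Rfc4, Rfc5, Lig1, Fen1, Tyms, Tk1, Timeless and Chaf1a. The strand setting of the authors' counts is not given in the sources used here, so how reads in the shared exon bases were counted is unknown. The size of the shared stretches is not given here.

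Other replication genes were compared as lists that hold none of the 46 genes. The MCM2-7 helicase genes fell in 6 of 6 cases, with a median log2 fold change of -0.62. Mcm3 had log2 values of 8.64, 8.54, 8.58 and 8.44 with dexamethasone, against 9.26, 9.16, 9.31 and 9.46 with vehicle. Mcm2, Mcm3, Mcm4, Mcm5, Mcm6 and Mcm7 had log2 fold changes of -0.72, -0.75, -0.48, -0.71, -0.54 and -0.27, with adjusted p of 1.1e-05 to 0.00118. Apart from Mcm7 they lay below the lowest of the 46 genes, Timeless at -0.44, a difference that was not tested. Of 32 further replication and replication-coupled genes 12 fell and 1 rose, where 6.03% of all tested rows were called lower and 9.04% higher. The median of the 32 genes was -0.08. The falls with the smallest adjusted p were those of the chromatin remodeller gene Hells (-0.55, adjusted p = 2.12e-05) and of Uhrf1, which guides DNA methylation to new strands (-0.50, adjusted p = 0.000246). Nasp, a histone chaperone gene, and Topbp1, which helps origins fire, had log2 fold changes of -0.28 (adjusted p = 0.000792) and -0.23 (adjusted p = 0.00193). That list had 8 genes lower on leaving out dexamethasone replicate 2 or vehicle replicate 4 and with the zero-read covariate. In these 3 fits the share of all tested rows called lower was 4.83%, 3.35% and 2.91%. Of 25 further genes of nucleotide synthesis 7 fell and 1 rose, against 6.03% and 9.04% of all tested rows. Their median was -0.11 (-0.07 without vehicle replicate 3). Among those that fell, the purine synthesis gene Gart had a log2 fold change of -0.19 (adjusted p = 0.00138), the thymidylate kinase gene Dtymk -0.17 (adjusted p = 0.00869) and the pyrimidine synthesis gene Cad -0.20 (adjusted p = 0.00879). In purine synthesis Paics rose by 0.15 on the log2 scale (adjusted p = 0.0140), a call lost with quantile normalization and with the zero-read covariate, and is named for this value.

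Of 30 tested regulators of entry into S phase 11 fell and 4 rose, where 6.03% of all tested rows were called lower and 9.04% higher. Their median of -0.06 was -0.09 without dexamethasone replicate 1, -0.04 without dexamethasone replicate 4 and -0.03 without vehicle replicate 3. Ccnd1, which encodes cyclin D1, fell by 0.48 on the log2 scale (adjusted p = 2.12e-05), and E2f1, an activator of S phase genes, fell by 0.38 on the log2 scale (adjusted p = 0.000244). E2f1 had log2 values of 6.27, 6.29, 6.31 and 6.31 with dexamethasone, against 6.62, 6.68, 6.59 and 6.82 with vehicle. The cyclin gene Ccnd2 fell by 0.27 on the log2 scale (adjusted p = 0.000461). Cdkn1c, which encodes the CDK inhibitor p57, rose by 0.44 on the log2 scale (adjusted p = 3.91e-05). Its log2 values were 9.63, 9.68, 9.78 and 9.73 with dexamethasone, against 9.31, 9.28, 9.18 and 9.29 with vehicle. Of 28 genes of DNA damage checkpoint and repair 5 fell and 4 rose, against the same shares of all rows. Their median of -0.02 was -0.04 without vehicle replicate 2, and -0.01 without dexamethasone replicate 2, without vehicle replicate 4 or with quantile normalization. There Wee1, a kinase that restrains mitosis, and the stress gene Gadd45g rose by 0.37 on the log2 scale (adjusted p = 1.57e-05) and 0.83 (adjusted p = 4.59e-05), while Chek1, which encodes the kinase Chk1, had a log2 fold change of -0.30 (adjusted p = 0.000600). That list had 2 genes lower on leaving out vehicle replicate 4 and 3 on leaving out any one of dexamethasone replicates 1 and 2 and vehicle replicates 1 and 2, or with a replicate block. With the zero-read covariate it had 2 lower and 2 higher. Of all tested rows 2.91% were called lower with that covariate, and 3.35% without vehicle replicate 4.

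Mitosis genes were rarely called. Of 34 tested genes 1 fell and 1 rose, where 6.03% of all tested rows were called lower and 9.04% higher. The log2 fold change was positive in 26 of the 34, with a median of 0.04, while 51.5% of all tested rows had a negative one. Kif23, a kinesin gene of cytokinesis, had -0.11 (adjusted p = 0.0483) and Ube2c, a gene of mitotic exit, 0.19 (adjusted p = 0.0200). Without vehicle replicate 2 the median was 0.01 with 13 genes negative, without dexamethasone replicate 3 it was 0.02 with 9 negative, and with the zero-read covariate 0.02 with 14 negative. The number that fell was 0 on leaving out any dexamethasone library or vehicle replicate 1 or 4, and likewise with a replicate block, no filter, median centring or the zero-read covariate. The number that rose was 2 on leaving out dexamethasone replicate 2 or vehicle replicate 1, and 0 with that covariate. Mki67, the gene of the proliferation marker Ki-67, averaged 11.24 ± 0.06 with dexamethasone and 11.21 ± 0.10 with vehicle (SD, n = 4 each). Its log2 fold change was 0.03 (95% interval -0.08 to 0.14, adjusted p = 0.734). Cdk1, the kinase that drives entry into mitosis, averaged 8.13 ± 0.13 with dexamethasone and 8.07 ± 0.05 with vehicle (SD, n = 4 each), with a log2 fold change of 0.06 (95% interval -0.07 to 0.19, adjusted p = 0.507). Both genes were picked with their values known. The difference between S phase and mitosis genes is given by these counts and medians and was not tested as a set.

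**Figure D4:**
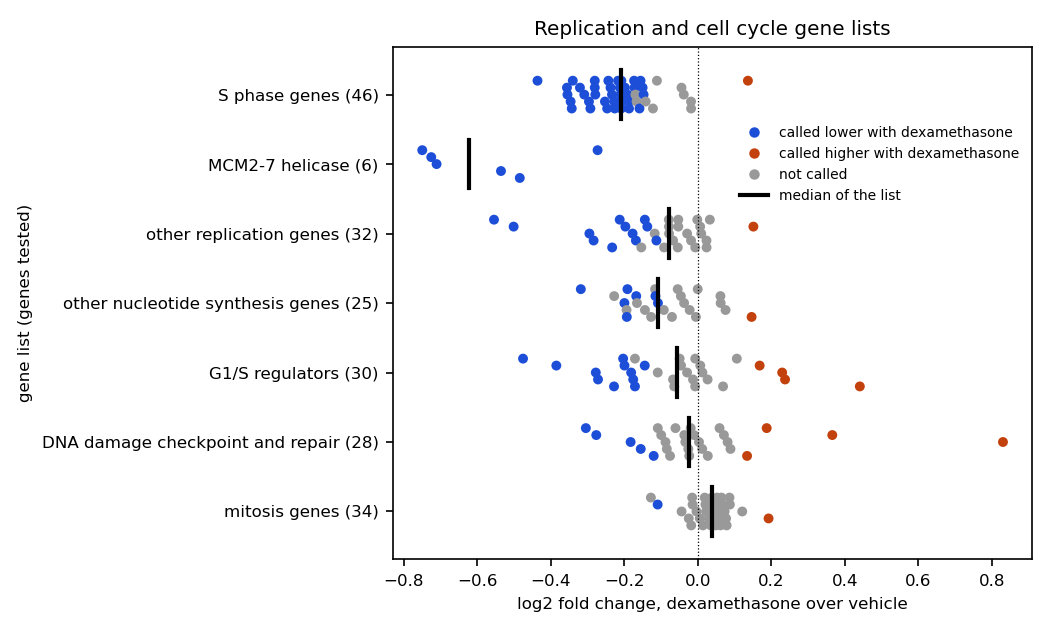
Log2 fold change, dexamethasone over vehicle, of each tested gene in 7 lists, with the number of genes tested in brackets and the median of each list as a black bar. The median is -0.21 for the 46 S phase genes, -0.62 for the MCM2-7 genes and 0.04 for the mitosis genes.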

How the data were processed

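RNA from whole corneas was sequenced in 8 libraries, 4 per group, as 75 bp paired-end reads per the labels' protocols. The submitters' processing notes name Bowtie2, HTSeq, DESeq2 and mm9. For versions, annotation and strand setting, the sources used here give nothing. The authors deposited normalized values on a log2 scale in 1 table. For the 812 rows averaging 2 to 3, the within-group SD had a median of 0.0213, as in shrunken log2 values, though the transformation is not named. The depth behind single values is unknown.

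Dexamethasone and vehicle libraries were compared by a limma 3.58.1 fit (R 4.3.3; empirical Bayes with a trend, two-sided) of the log2 values. Benjamini-Hochberg adjustment covered the 14715 rows averaging at least 3. Labels do not say whether pools came from separate batches of mice, so p-values measure only the spread between these pools. Alternatives were a replicate block, other filters, a pseudocount of 8, quantile normalization, median centring, no trend, a covariate for each library's zero-read level, and leaving out libraries. Exon lengths for levels per kilobase, and gene coordinates, were those of GENCODE vM1 (NCBIM37, which is mm9), and promoter windows came from RefSeq on GRCm38.p6. The members, the subgroups and the other lists were chosen with earlier results of these data known. Values of all libraries are given for each called member, and for other lists up to 4 called genes by adjusted p, of which some are not reported here. Python 3.11.15 with NumPy 2.4.6, pandas 2.3.3 and Matplotlib 3.10.9 made the summaries.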

Additional observations from a re-analysis of the deposited data

Results flagged for a closer look

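Of 92 sets of 4 libraries (46 genes in 2 groups), 3 had a single library far from the others, measured as its gap to the nearest library over the range of the group. Chance flags about 1 in 20, or 4.6 of 92. Dexamethasone replicate 1 was highest for Cdc6 (0.889), vehicle replicate 3 was lowest for Prim1 (0.838), and vehicle replicate 4 was highest for Pole2 (0.910). All 3 genes were called lower in each fit that left out 1 library.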

How the results depend on the processing

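The 36 genes called lower became 32 to 37 under the alternatives other than leaving out 1 library, and 33 to 38 on leaving out each library in turn. Of the 36 genes 29 kept their call in every alternative that tested them, and 7 lost it at least once. Of 781 pairs of a gene and an alternative, 731 kept their direction and side of the threshold, 35 lost the call, 13 gained one and 2 changed sign. Both sign changes were of Dbf4, whose log2 fold change was 0.0019 without dexamethasone replicate 2 and 0.0056 without vehicle replicate 4, and ran from -0.0529 to 0.0056 on leaving out 1 library. The count of 1 gene called higher, Rrm1, was 0 with a replicate block, with no filter, with quantile normalization, in limma without trend and with the zero-read covariate, and 0 to 1 on leaving out 1 library. Of all tested rows 2218 were called, 1212 with the zero-read covariate and 1411 to 2131 on leaving out 1 library, the lowest without vehicle replicate 4. The cause was not tested. Same-numbered libraries had correlations of their deviations of -0.31, 0.19, -0.14 and 0.14. The highest correlation, 0.65, was between dexamethasone replicate 1 and vehicle replicate 3. The pattern shared by these libraries enters the other correlations too, so they cannot show whether the numbers pair the pools. The replicate block gave 34 genes lower and 1675 of all rows called. Depth of single libraries is unknown, and rows of low level hardly vary, which limits what they can show. A minimum mean of 5 left out Dscc1. No count test was run, since the values are not counts.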
